A study of Ovis aries with 6 samples.

Results

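DNA replication and G1/S genes are the 38 genes described here, taken by gene symbol from a raw count table of 18865 rows. They cover the licensing of replication origins, the replicative helicase, the DNA polymerases with primase, the sliding clamp and its loader, nucleotide supply, chromatin behind the fork, and the control of entry into S phase by E2F1 and the E-type cyclins. All 38 were found in the table, and all 38 passed the filter on low counts that left 14326 genes for testing. The libraries come from sheep mitral valve endothelial cells (VECs), which line the valve leaflets, cultured for 24 h with plasma of naive sheep (3 libraries) or of sheep that had a myocardial infarction (post-MI plasma, also 3 libraries). No genotype, transgene, further agent, age, breed or plasma dose is given for either group, and both groups share the cell type and the 24 h of exposure. The labels leave unsaid whether libraries of 1 group are separate cultures, cell donors or plasma donors, so the tests below measure the spread among these libraries, part of which may be technical. The series concerns the Wnt inhibitor sFRP3 and the turning of valve endothelium toward a mesenchymal state after infarction.

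A cell copies its genome once per division. In G1 the origin recognition complex with CDC6 and CDT1 loads the MCM2 to MCM7 ring onto DNA. In S phase CDC45 and the GINS complex turn that ring into the active helicase, and polymerases with the clamp PCNA copy both strands. Many of these genes are transcribed under E2F factors as cells pass from G1 to S, and endothelium that has stopped dividing keeps most of them low. Bulk RNA gives an average over cells, so fewer cells in S phase and less of a transcript per cell cannot be told apart in any value below.

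Total counts were 14858472 to 20672794 per library, and the 38 genes took 0.0658% to 0.109% of them. Naive replicate 1 lay apart from the other 5 libraries on the first principal component of the 500 most variable genes (-52.3 against -0.48 to 18.5, with 59.2% of the variance). All 12 endothelial markers on a fixed list were detected, with a summed 2886 to 3626 CPM in the naive and 3177 to 4383 CPM in the post-MI libraries (CPM, the count relative to the library total after TMM scaling). Markers of fibroblasts and valve interstitial cells summed to 20170 to 34110 and 29850 to 33010 CPM over 12 genes. Most of this sum came from VIM, at 8752 to 16360 CPM, and the collagen genes COL1A1, COL1A2 and COL3A1. The others ran from 2.15 CPM (THY1) to 3057 CPM (POSTN), both in naive replicate 1. DCN, FAP, THY1 and PDGFRA were at 58.5 CPM or less in every library. Smooth muscle markers summed to 937 to 4957 CPM in the naive and 4457 to 6137 CPM in the post-MI libraries over 7 genes. These ranges overlapped, and any part of smooth muscle expression in the values below was not tested. Leukocyte markers summed to 59.5 to 72.8 CPM with naive and 44.7 to 71.4 CPM with post-MI plasma, with 7 of 11 below 1 CPM in every library and MS4A1 at 0 counts, which allows up to 0.145 to 0.202 CPM depending on the library.

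The comparison of the plasmas asks how post-MI plasma alters gene expression in VECs. Transcripts of the replication machinery were on average slightly higher with post-MI plasma, and none passed the test for a change. The log2 fold change (post-MI over naive) was above 0 for 37 of the 38 genes and below 0 for 1, CCNE1, with a median of 0.36. Over all 14326 genes tested 47.9% had a positive log2 fold change, with a median of -0.01. CPM of all 3 post-MI libraries lay above all 3 naive libraries for 13 of the 38 genes, where 8.52% of all genes did so, and below them for 0, where 7.6% of all genes did. Summed over the 38 genes the level was 921, 929 and 637 CPM in naive replicates 1, 2 and 3 and 987, 1102 and 1068 CPM in post-MI replicates 1, 2 and 3. The groups did not overlap in this sum, and naive replicate 3 was the lowest library by a wide margin.

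Single genes were tested with edgeR's quasi-likelihood test and Benjamini-Hochberg adjustment over all 14326 genes. It called 0 of the 38 genes and 0% of all genes, with adjusted p of 0.491 to 0.965 among the 38. At an unadjusted p under 0.05 it gave 4 of the 38 higher with post-MI plasma (GINS1, CDC45, MCM7 and MCM2), where 4.61% of all genes were, and 0 lower, where 4.08% were. DESeq2's Wald test called 0 of the 38 and 1.52% of all genes, and limma-voom called 0 of the 38 and 0% of all genes. At an unadjusted p under 0.05 each gave 5 of the 38 higher, where DESeq2 gave 5.43% and limma-voom 4.88% of all genes. A missed threshold does not show that a gene stayed the same, so 95% intervals of the fold change are of use here. The upper limit was under 2-fold higher for 22 of the 38 genes and under 3-fold higher for 35, and the exceptions were UHRF1, RRM2 and GINS3. The intervals come from the same fit and are not adjusted for the number of genes.

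**Figure D1:**
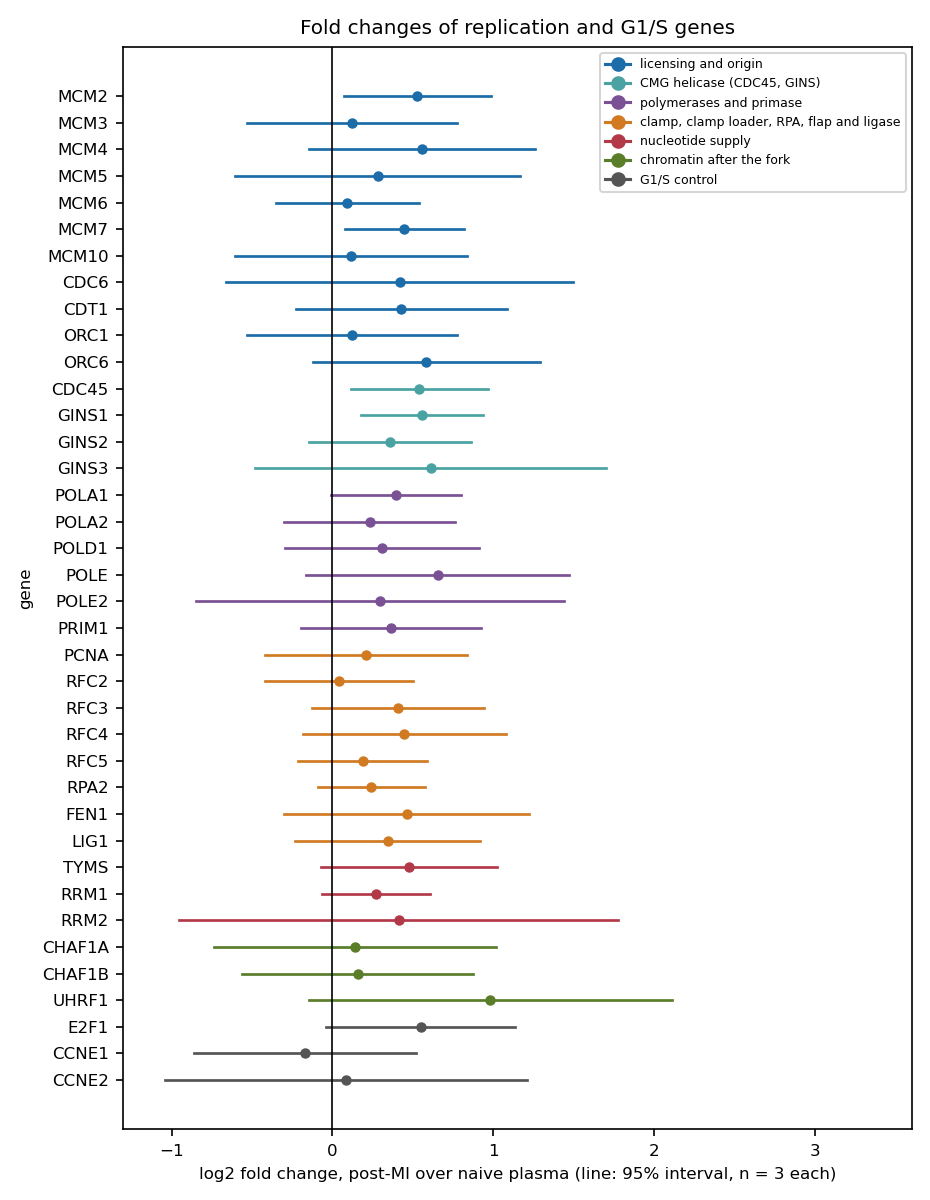
Log2 fold change of each of the 38 genes, post-MI over naive plasma, as a point with its 95% interval from edgeR (3 libraries per group), coloured by role. Of the 38 points 37 lie to the right of 0 and CCNE1 lies to its left, and the intervals of UHRF1, RRM2 and GINS3 reach furthest to the right.

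Among licensing factors the MCM genes, which encode the 6 subunits of the ring, differed in whether the plasma groups overlapped. Values by library are in the order of replicates 1, 2 and 3, and log2 fold changes are given ± SE. MCM2 was at 38.3, 48.8 and 30.9 CPM with naive and at 50.04, 62.3 and 57.9 CPM with post-MI plasma. Every post-MI library was above every naive library, though naive replicate 2 and post-MI replicate 1 nearly met, and the log2 fold change was 0.53 ± 0.19 with an edgeR adjusted p of 0.561. For MCM7 the naive values were 92.8, 103 and 88.1 CPM and the post-MI values 135, 145 and 108 CPM. Again the groups did not overlap, with a log2 fold change of 0.45 ± 0.16. MCM4 was at 40.4, 42.3 and 18.4 CPM with naive and 48.2, 53.2 and 47.4 CPM with post-MI plasma. Here naive replicates 1 and 2 sat just under the post-MI range and naive replicate 3 far under it. MCM3, MCM5 and MCM6 overlapped between the groups, with log2 fold changes of 0.12 ± 0.28, 0.28 ± 0.38 and 0.09 ± 0.19. Naive replicate 2 had the highest MCM5 level of all 6 libraries.

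The factors that place the ring on DNA differed from each other in pattern. CDC6, the loading ATPase, was at 4.75, 4.17 and 1.27 CPM in the 3 naive and 4.89, 4.44 and 4.27 CPM in the 3 post-MI libraries. The other 5 libraries were close together and naive replicate 3 was alone below them, with 27 counts behind its value. CDT1, its partner in loading, was at 22.8, 30.04 and 27.0 CPM with naive and 23.8, 32.8 and 51.0 CPM with post-MI plasma. In CDT1 it was post-MI replicate 3 that stood above the rest, and naive replicate 3 lay mid-range. ORC6, a subunit of the origin recognition complex, was at 3.55, 3.70 and 2.20 CPM with naive and 4.46, 5.87 and 3.87 CPM with post-MI plasma, without overlap (log2 fold change 0.58 ± 0.30). ORC1, the largest subunit of that complex, overlapped (log2 fold change 0.12 ± 0.28), as did MCM10, which helps start the helicase (log2 fold change 0.12 ± 0.31).

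**Figure D2:**
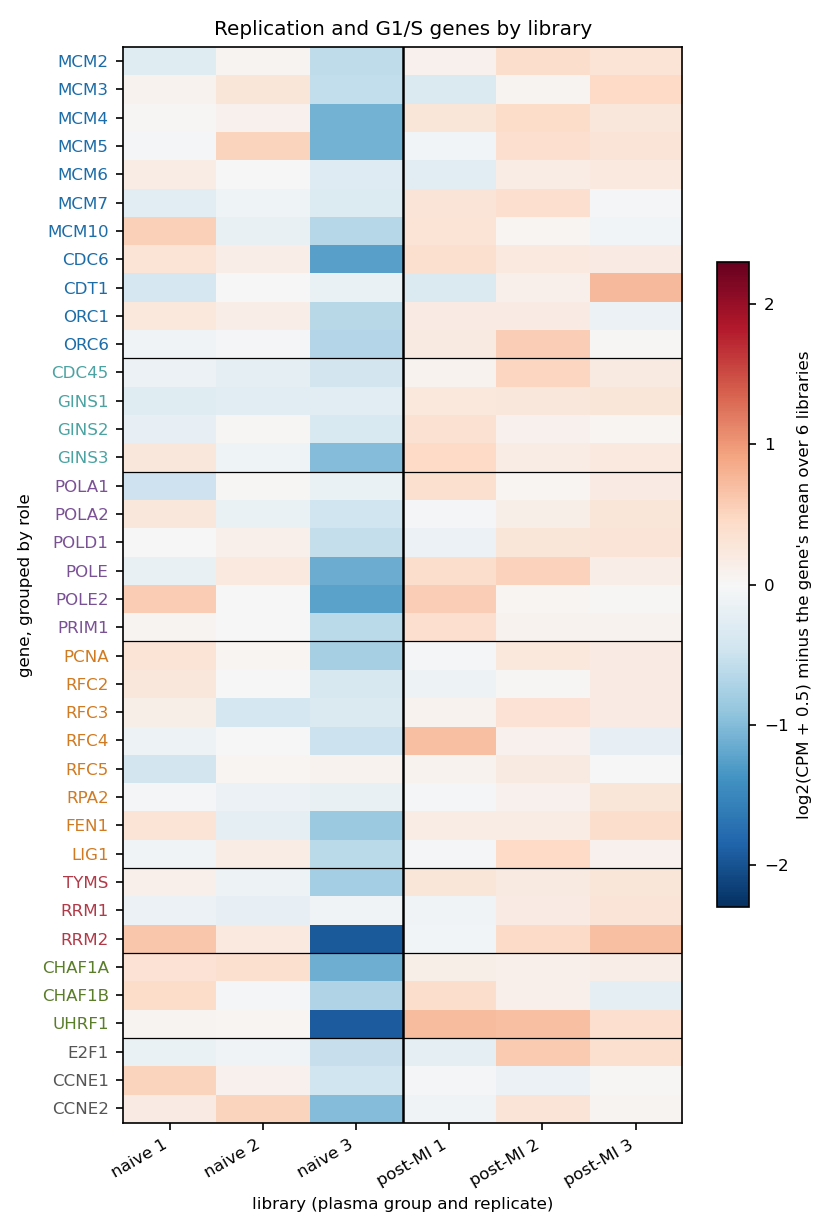
Level of each of the 38 genes (rows, grouped by role with names coloured as in the plot of fold changes) in each of the 6 libraries (columns), as log2(CPM + 0.5) minus the gene's mean over the libraries. Naive replicate 3 is the lowest library in 32 of the 38 rows, and rows such as RFC5, CDT1 and POLA1 lack this dip.

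Of the 4 genes for partners that activate the helicase, 3 had post-MI levels above the naive range without overlap, where 8.52% of all genes did. GINS1, a subunit of the GINS complex, was at 6.45, 6.66 and 6.51 CPM in the naive and 9.51, 9.63 and 9.76 CPM in the post-MI libraries. Both groups were tight and lay apart, naive replicate 3 included, and GINS1 had the smallest p of the 38 genes (log2 fold change 0.56 ± 0.16, edgeR adjusted p = 0.491). With any 1 library left out its log2 fold change stayed between 0.55 and 0.57. These values rest on 115 to 177 counts per library, for which counting error alone would give a wider spread within each group. CDC45, which joins GINS on the ring, was at 10.4, 9.78 and 8.48 CPM with naive and 12.2, 16.3 and 13.2 CPM with post-MI plasma. Its groups did not overlap either (log2 fold change 0.54 ± 0.18). GINS2 did not overlap, at 4.22 to 5.61 CPM with naive and 5.66 to 7.10 CPM with post-MI plasma. GINS3 did overlap, at 0.609 to 2.15 and 1.98 to 2.53 CPM, on 13 to 47 counts per library.

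Polymerase genes varied in which library was low. POLA1, the catalytic subunit of the polymerase that starts each strand, was at 25.9, 36.8 and 32.2 CPM with naive and 46.7, 37.1 and 41.2 CPM with post-MI plasma. The groups were separate by the small gap between naive replicate 2 and post-MI replicate 2, and the low library was naive replicate 1 (log2 fold change 0.39 ± 0.17). POLE, the catalytic subunit of the leading strand polymerase, was at 9.95, 13.1 and 4.82 CPM with naive and 14.9, 16.5 and 12.4 CPM with post-MI plasma. Naive replicate 2 lay inside the post-MI range and naive replicate 3 far below it, and the log2 fold change of 0.65 ± 0.35 was the second highest of the 38. POLE2, which binds POLE, ran from 1.87 to 7.90 CPM in the naive and from 5.20 to 7.79 CPM in the post-MI libraries. For PRIM1, the primase that lays down RNA primers, the highest naive library was at 10.9 CPM and the lowest post-MI library at 11.0 CPM. POLA2 and POLD1, the second subunit of polymerase alpha and the catalytic subunit of polymerase delta, overlapped, with log2 fold changes of 0.23 ± 0.23 and 0.31 ± 0.26.

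PCNA, the ring that tethers polymerases to DNA and a common marker of proliferation, was at 54.3, 45.3 and 25.7 CPM with naive and 43.1, 52.0 and 49.9 CPM with post-MI plasma. Naive replicate 1 was the highest of all 6 libraries and naive replicate 3 the lowest, so the post-MI libraries lay within the naive range (log2 fold change 0.21 ± 0.27). FEN1, the nuclease that trims Okazaki fragments, was at 8.70, 5.79 and 3.61 CPM with naive and 7.85, 7.78 and 9.30 CPM with post-MI plasma. It overlapped through naive replicate 1. LIG1, the ligase that seals the fragments, overlapped too (log2 fold change 0.34 ± 0.25). RPA2, part of the complex that coats single-stranded DNA, was at 18.0 to 19.8 CPM with naive and 19.9 to 24.7 CPM with post-MI plasma, a narrow gap. The 4 clamp loader subunits all overlapped, and RFC3, RFC4 and RFC5 had log2 fold changes of 0.41 ± 0.23, 0.45 ± 0.27 and 0.19 ± 0.17. RFC2 was at 26.0, 21.8 and 16.6 CPM with naive and 19.8, 21.9 and 24.7 CPM with post-MI plasma. Its naive and post-MI ranges covered much the same levels (log2 fold change 0.04 ± 0.20).

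In nucleotide supply the 2 subunits of ribonucleotide reductase, which makes deoxynucleotides, had different patterns. RRM1 was at 66.2, 63.6 and 68.2 CPM with naive and 68.3, 82.1 and 89.1 CPM with post-MI plasma. The naive libraries were within a narrow band and the post-MI libraries touched its upper edge (log2 fold change 0.27 ± 0.14). RRM2, the subunit whose level follows S phase, was at 40.3, 30.1 and 6.37 CPM with naive and 24.8, 35.4 and 42.0 CPM with post-MI plasma. Naive replicate 3 was far below every other library, while naive replicates 1 and 2 lay inside the post-MI range, and the 95% interval of its log2 fold change ran from -0.95 to 1.78. TYMS, which makes thymidylate, was at 26.8, 22.9 and 14.1 CPM with naive and 30.1, 28.7 and 30.2 CPM with post-MI plasma. The post-MI values were nearly equal and above all naive values (log2 fold change 0.48 ± 0.23, edgeR adjusted p = 0.572).

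Behind the fork UHRF1, which reads half-methylated DNA and recruits the maintenance methyltransferase, had the highest log2 fold change of the 38, at 0.98 ± 0.48 with an edgeR adjusted p of 0.572. It was at 32.7, 32.4 and 7.92 CPM with naive and 52.1, 51.1 and 41.0 CPM with post-MI plasma. All post-MI libraries lay above naive replicates 1 and 2, which were nearly equal, and naive replicate 3 lay at the bottom. Without naive replicate 3 the log2 fold change was 0.56. CHAF1A and CHAF1B, subunits of the factor that puts histones on new DNA, overlapped, with log2 fold changes of 0.14 ± 0.37 and 0.16 ± 0.31.

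Of the S phase entry genes, E2F1, the transcription factor, was at 14.3, 15.1 and 10.8 CPM with naive and 13.7, 24.5 and 20.7 CPM with post-MI plasma. Post-MI replicate 1 lay among the naive libraries and the other 2 above them (log2 fold change 0.55 ± 0.25). CCNE1, an E-type cyclin that activates CDK2, was at 7.70, 5.61 and 3.70 CPM with naive and 5.05, 4.71 and 5.37 CPM with post-MI plasma. The naive range enclosed the post-MI range, and the log2 fold change was -0.17 ± 0.29. CCNE2, the other E-type cyclin, was at 2.75, 3.59 and 0.937 CPM with naive and 2.20, 3.00 and 2.48 CPM with post-MI plasma, on 20 to 62 counts per library. Its naive libraries likewise spanned the post-MI values (log2 fold change 0.08 ± 0.48). CCNE1, RFC2 and CCNE2 had the 3 lowest log2 fold changes of the 38.

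In these genes the naive libraries differed among themselves. Naive replicate 3 was the lowest of the 6 libraries for 32 of the 38, where it was the lowest for 19.0% of all genes tested. On the log2 scale the SD over the naive libraries exceeded that over the post-MI libraries for 30 of the 38, with medians of 0.41 and 0.19. Of all genes tested 66.5% had the larger SD with naive plasma, with medians of 0.27 and 0.19. Naive replicate 1 was the lowest library for 4190 of the 14326 genes tested and for 4 of the 38. Whether the 2 spreads have the same source was not tested. The ratio of naive replicates 1 and 2 pooled to naive replicate 3 had a median of 1.64 over the 38 genes and 1.01 over all genes tested. It was above 2 for 11 of the 38, and for 5.05% of all genes tested.

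Within ribonucleotide reductase, the MCM ring and the GINS complex that ratio differed by more than counting error. The 95% intervals given here are exact binomial (Clopper-Pearson) intervals, cover counting error alone and say nothing of culture-to-culture variation. In ribonucleotide reductase it was 5.58 (4.68 to 6.71) for RRM2 and 0.952 (0.892 to 1.02) for RRM1. In the MCM ring it ran from 1.11 (1.05 to 1.17) for MCM7 to 2.59 (2.29 to 2.94) for MCM5. GINS1 stood at 1.01 (0.813 to 1.25) and GINS3 at 3.08 (1.69 to 6.08). POLE and POLE2, of the leading strand polymerase, had overlapping intervals, at 2.36 (1.901 to 2.96) and 3.52 (2.51 to 5.05), and POLA1, of polymerase alpha, was at 0.962 (0.875 to 1.06). Other genes above 3 were UHRF1 at 4.11 (3.5 to 4.86), CDC6 at 3.54 (2.35 to 5.54) and CCNE2 at 3.35 (2.07 to 5.69). At the other end RFC5, a clamp loader subunit, was higher in naive replicate 3 than in the other naive libraries (ratio 0.830 (0.765 to 0.901)). The intervals of RRM1, POLA1, CDT1, GINS1, CDC45, GINS2, RFC3 and RPA2 included 1.

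**Figure D3:**
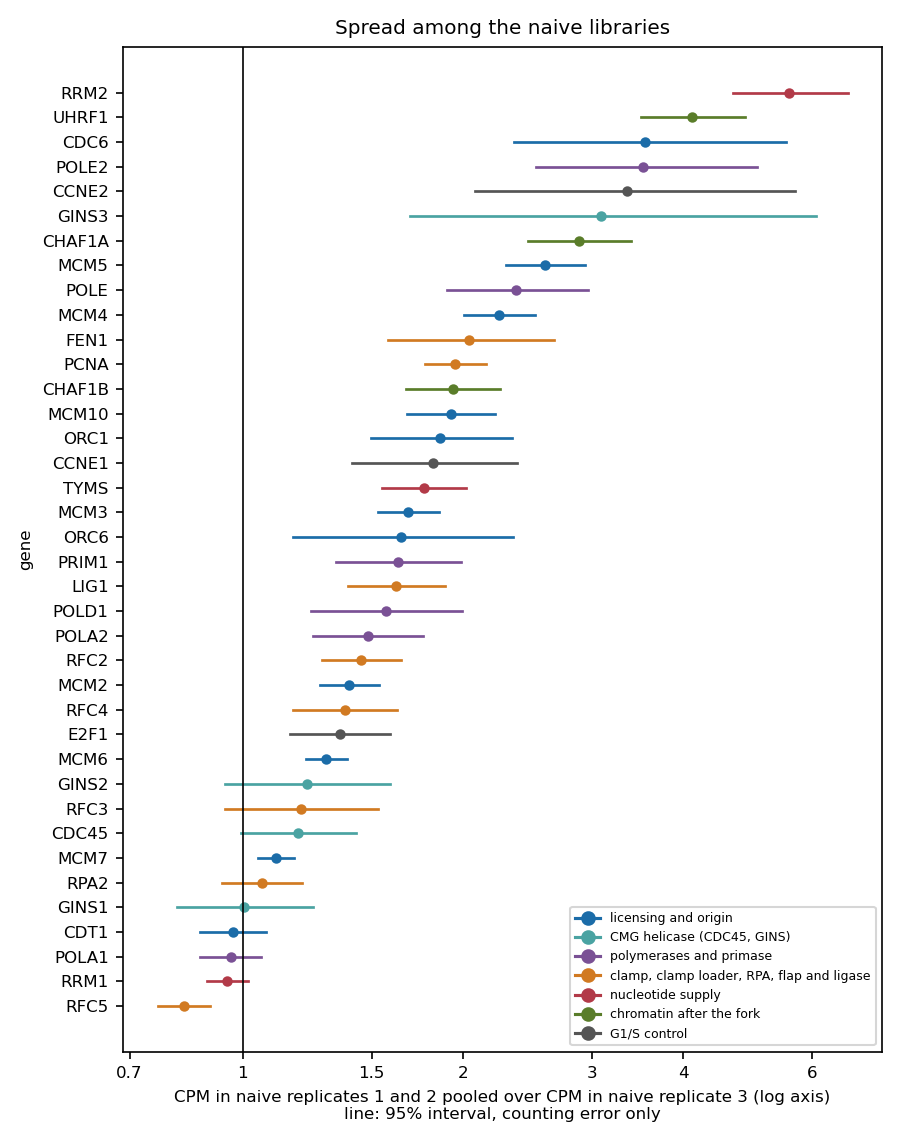
Ratio of CPM in naive replicates 1 and 2 pooled to CPM in naive replicate 3 for each of the 38 genes, sorted, on a log axis, with 95% intervals for counting error alone and colours by role. RRM2 and UHRF1 lie highest, at 5.58 and 4.11, and RFC5 lies lowest, at 0.83.

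Without naive replicate 3 the median log2 fold change of the 38 genes was 0.21, and 25 were positive and 13 negative. RRM2 then gave -0.05, PCNA -0.05, MCM5 -0.05, POLE2 -0.10, CHAF1A -0.22, CCNE1 -0.40 and CCNE2 -0.31. GINS1 gave 0.55, CDC45 0.46, MCM7 0.40, E2F1 0.42 and MCM2 0.38, all 5 above 0. The same 13 genes had post-MI levels above both remaining naive levels, which leaving out a naive library can hardly undo. No other gene of the 38 joined them, while the share of all genes rose from 8.52% with all libraries to 14.2%. For 2 others, CHAF1A and CCNE1, post-MI levels lay below both remaining naive levels, where 14.6% of all genes did. Without naive replicate 1, the library that lay apart on the first component, the median was 0.47 and all 38 were positive, with 10 at an unadjusted p under 0.05, where 4.74% of all genes were higher at that p, and 0 called by edgeR.

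**Figure D4:**
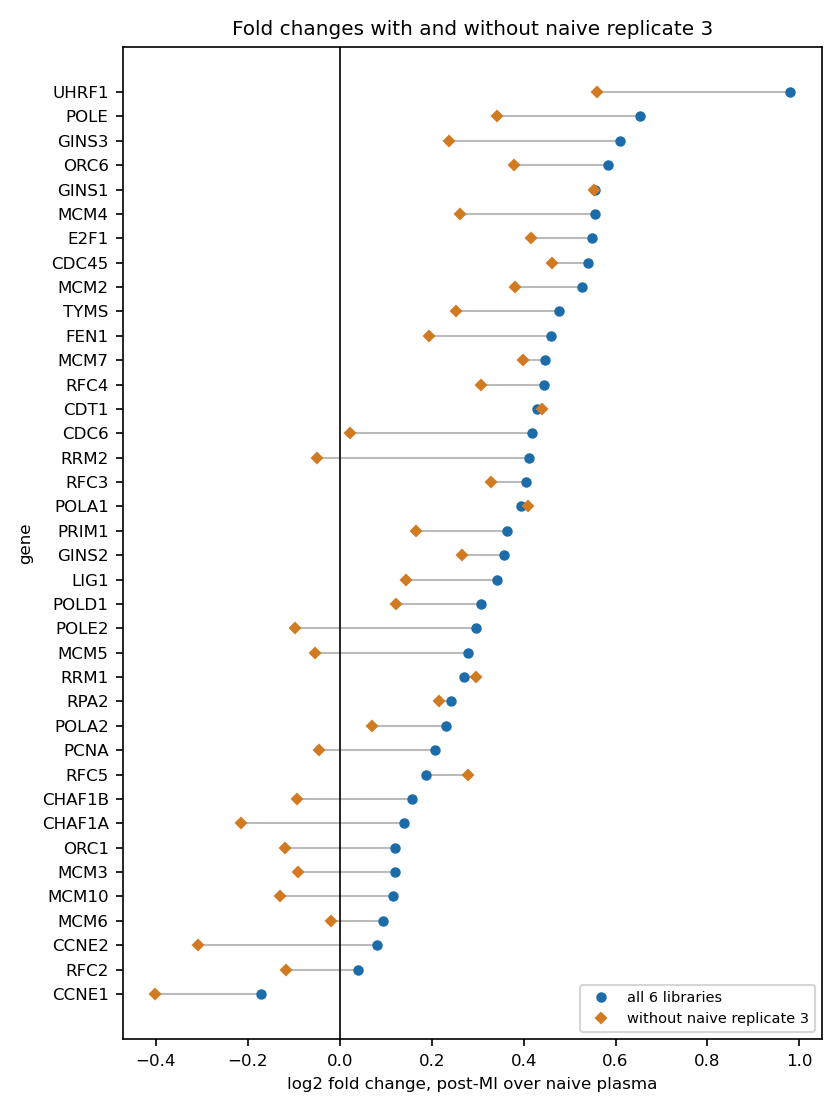
Log2 fold change of each of the 38 genes, post-MI over naive plasma, with all 6 libraries (circles) and without naive replicate 3 (diamonds), joined by a line. With it left out 13 genes lie left of 0, while GINS1 stays at almost the same place.

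Genes of mitosis, the phase that follows replication, are set beside the 38 here. Of 28 genes on a fixed list all 28 had a positive log2 fold change with a median of 1.49, and edgeR called 0. For 27 of them the post-MI libraries lay above the naive range without overlap, where 8.52% of all genes did. Without naive replicate 3 all 28 were positive, with a median of 1.22, and without naive replicate 1 there were 27, with a median of 1.76. The exception was AURKA, a mitotic kinase named after its values were seen, at -0.018 without that library and 0.30 with all libraries. The mean log2 CPM of the 38 replication and G1/S genes was 4.05, 4.001 and 3.26 in naive replicates 1, 2 and 3 and 4.12, 4.23 and 4.17 in post-MI replicates 1, 2 and 3. For the mitosis genes it was 4.02, 3.73 and 3.04, and 5.48, 4.996 and 4.84. The mitosis mean minus the replication mean was -0.03, -0.27 and -0.22 in the naive and 1.35, 0.77 and 0.67 in the post-MI libraries. Naive replicate 3 was low for both lists and is not set apart in this difference, in which the groups did not overlap. No test was made of it, since both lists were chosen with earlier results of these data in view.

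**Figure D5:**
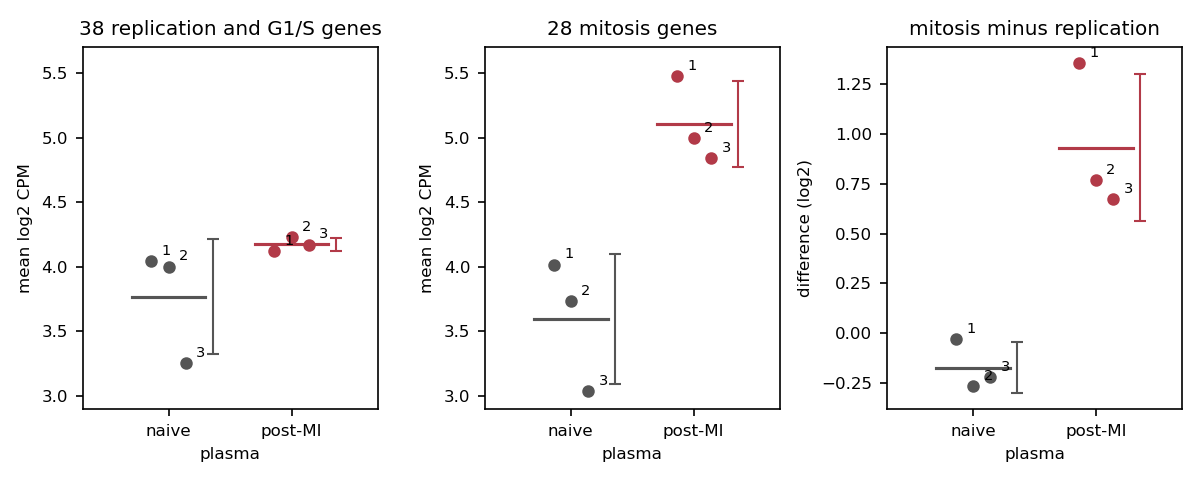
Mean log2 CPM per library of the 38 replication and G1/S genes (left), of 28 mitosis genes (middle, same scale) and the second minus the first (right), with points numbered by replicate, a line at the group mean and a bar for 1 SD (n = 3). On the left naive replicates 1 and 2 lie just under the post-MI libraries and naive replicate 3 far below, while on the right the naive libraries lie below 0 and the post-MI libraries at 0.67 or more.

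Other replication factors, not among the 38, are given here from a fixed list. Of 36 tested 31 had a positive log2 fold change (median 0.21), and 0 were called by edgeR. In this list 11 lay above and 1 below the naive range without overlap, where 8.52% and 7.6% of all genes did. The median was 0.13 without naive replicate 3, with 26 positive and 10 negative, and also 0.13 without post-MI replicate 1. TICRR, which helps recruit CDC45 to origins, was at 6.90, 7.93 and 7.17 CPM with naive and 16.3, 14.3 and 14.9 CPM with post-MI plasma. Its naive libraries were nearly equal, naive replicate 3 included, and the log2 fold change was 1.05 ± 0.16 (edgeR adjusted p = 0.254). RECQL4, a helicase of replication initiation, gave 0.90 ± 0.20, the alternative clamp loader gene CHTF18 1.11 ± 0.26, and the topoisomerase gene TOP2A, which also acts in mitosis, 1.24 ± 0.38. The lowest were ORC4 and the fork protection gene TIPIN, at -0.35 ± 0.17 and -0.17 ± 0.22.

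Further G1/S regulators had log2 fold changes of both signs. Of 33 tested 23 had a positive log2 fold change (median 0.21). Among them 8 lay above the naive range without overlap and 0 of the 33 below, where 8.52% and 7.6% of all genes did. CCNA2, the cyclin of S phase and G2, was at 11.4, 8.45 and 3.19 CPM with naive and 24.0, 23.01 and 22.9 CPM with post-MI plasma. Its groups lay well apart, with a log2 fold change of 1.60 ± 0.41 (edgeR adjusted p = 0.403). MYBL2, a transcription factor of cycling cells, gave 1.47 ± 0.33, the repressor E2F7 1.45 ± 0.44 and the CDK inhibitor CDKN2D 0.89 ± 0.29. The lowest were the CDK inhibitor CDKN1A, at -0.72 ± 0.47, and the D-type cyclin CCND2, at -0.65 ± 0.37, and both overlapped between the groups.

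In the wider nucleotide supply list the log2 fold change was above 0 for 8 of 15 tested genes and below 0 for 7 (median 0.05). Without naive replicate 3 there were 7 above and 8 below 0, with a median of -0.025. RRM2B, the ribonucleotide reductase subunit used outside S phase, was at 7.45, 5.09 and 6.65 CPM with naive and 3.98, 3.55 and 3.99 CPM with post-MI plasma. All post-MI libraries lay below all naive libraries (log2 fold change -0.74 ± 0.23, edgeR adjusted p = 0.521). Its relatives RRM1 and RRM2 had positive log2 fold changes, though that of RRM2 was -0.05 without naive replicate 3. In this list 3 genes lay above and 1 below without overlap, where 8.52% and 7.6% of all genes did. Among those above were DUT, which removes dUTP, and DTYMK, which phosphorylates thymidylate, at 0.57 ± 0.20 and 0.69 ± 0.41. For DUT the highest naive library was at 49.5 CPM and the lowest post-MI library at 51.2 CPM. DTYMK was at 10.9, 11.3 and 3.47 CPM with naive and 12.6 to 14.9 CPM with post-MI plasma, so naive replicate 3 stood alone at the bottom.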

How the data were processed

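RNA of 6 libraries was sequenced in paired ends from a stranded mRNA kit, per the labels' protocols. The submitters' processing notes list FastQC, STAR 2.5.2b, featureCounts 2.0.0, SAMtools 1.9, DESeq2 1.26.0 and MultiQC 1.5, and name the build Oar_v3.1. Which annotation was counted, and with which strand setting, is not given in the sources used here. Raw counts per gene symbol make up the deposited table of the whole series, whose columns were matched to samples by name. The signal in the files deposited for each sample is the same counts over 1 factor per library, so it added no data. Groups and replicate numbers come from the sample titles.

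In R 4.3.3, genes were kept by filterByExpr of edgeR 4.0.16 (minimum count 10, minimum total count 15), scaled by TMM and compared by edgeR's quasi-likelihood test over all 14326 genes (Benjamini-Hochberg, 0.05). Standard errors were derived from the F statistic, and 95% intervals from them with the t distribution. Mean log2 CPM used a prior count of 2. Alternatives were DESeq2 1.42.0, limma-voom (limma 3.58.1), DESeq2 size factors, other filters, plain totals, the replicate number as a block and libraries left out. The fit was tested on simulated data.

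The 38 genes and all lists were chosen with earlier results of these data known. Levels by library are printed for 20 of the 38: the 12 with the smallest p, the 3 with the lowest log2 fold change and 12 fixed genes, some of them in more than 1 of these sets. From each pathway list up to 4 genes of smallest p and 2 of lowest log2 fold change are named, and a result this rule would add is not reported here. Per RefSeq ARS-UI_Ramb_v3.0, used for names and neighbours alone, 7 of the 38 overlap another protein-coding gene (POLE2, RFC4, RFC5, TYMS, UHRF1, E2F1 and CCNE2), whose reads could be shared if strand was not used. No coordinates or sequences are given, since no genome, promoter or protein sequence was used here. Motif searches that had been planned were therefore not run. Intervals for counting error do not cover PCR duplicates, and the labels name no molecular identifiers.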

Additional observations from a re-analysis of the deposited data

How the results depend on the processing

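Counting error is largest for GINS3 (13 to 47 counts per library) and CCNE2 (20 to 62). Over all genes edgeR called 0 higher and 0 lower, limma-voom did the same, and DESeq2 called 152 higher and 66 lower, none of them among the 38. Without naive replicate 1 and post-MI replicate 3 together edgeR called 3 higher, none among the 38. In that fit 25 of the 38 genes lay above the naive range without overlap, where 24% of all genes did, and 10 were higher at an unadjusted p under 0.05, where 7.42% were. The signs of MCM3 (-0.029), CDT1 (-0.002) and CCNE1 (0.086) turned there. With single libraries left out, the median of the 38 was lowest without naive replicate 3 (0.21) and highest without naive replicate 2 (0.47). The number positive was 25 without naive replicate 3 and 35 to 38 otherwise. At an unadjusted p under 0.05 there were 10 higher when naive replicate 1 was left out (4.74% of all genes), 2 when naive replicate 3 was (4.88%) and 1 when post-MI replicate 2 was (2.74%). The number above without overlap was lowest, at 13, without naive replicate 3 (14.2% of all genes) and without post-MI replicate 2 (10.5%). It was highest, at 19, without naive replicate 1 (12.7% of all genes). The share of all genes was largest without post-MI replicate 3, at 16.3%, where the number was 16. The number below was 2 without naive replicate 3 (14.6% of all genes) and 0 otherwise. Leaving out a library can hardly lower the number above, which was 13 with all libraries (8.52% of all genes). The log2 fold changes whose sign turned had these ranges over the fits that left out 1 library or that pair: MCM3 -0.103 to 0.301, MCM5 -0.053 to 0.684, MCM6 -0.019 to 0.233, MCM10 -0.130 to 0.609, CDT1 -0.002 to 0.655, ORC1 -0.120 to 0.409, POLE2 -0.097 to 0.937, PCNA -0.045 to 0.455, RFC2 -0.116 to 0.209, RRM2 -0.050 to 0.917, CHAF1A -0.215 to 0.368, CHAF1B -0.093 to 0.625, CCNE1 -0.402 to 0.127 and CCNE2 -0.308 to 0.473. The cause was not tested.

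With the replicate number as a block the median was 0.39, 37 of the 38 were positive, 6 were higher at an unadjusted p under 0.05 (4.57% of all genes) and edgeR again called 0 genes. Deviations of same-numbered libraries from their group means correlated at 0.15, -0.11 and 0.09 over all genes tested. Those of unlike number ran from -0.308 to 0.241 there, and the highest was naive replicate 3 with post-MI replicate 2. Over the 38 genes they correlated at 0.22, 0.24 and 0.13, against -0.21 to 0.02 for libraries of unlike number, and each library correlated best with its own number. These correlations were not tested, and genes are not independent replicates, so no pairing is read from them. Deviations from a group mean cancel out within the group, so higher values for like numbers go with lower values for unlike numbers. The labels do not say what a number marks. Under DESeq2, limma-voom, other size factors and other filters 37 of the 38 were positive. Plain totals gave 10 genes above without overlap (7.43% of all genes).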

Other observations

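Genes that handle histones and repair forks, which work beside the replication machinery, were also examined as fixed lists. For histones and chromatin assembly, log2 fold changes were above 0 for 7 and below 0 for 4 of 11 tested genes, with a median of 0.02, and edgeR called 0. Without naive replicate 3 there were 4 above and 7 below 0, with a median of -0.08, and without naive replicate 1 the median was 0.16. ASF1B, a histone chaperone of dividing cells, was at 10.5, 7.24 and 5.11 CPM in naive replicates 1, 2 and 3 and at 13.8, 14.3 and 16.8 CPM in post-MI replicates 1, 2 and 3. Its groups lay apart (edgeR adjusted p = 0.489). RBBP4, a histone-binding subunit of several chromatin complexes, was at 194, 175 and 182 CPM with naive and 163, 163 and 164 CPM with post-MI plasma, with all post-MI libraries below.

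For replication stress and repair they were above 0 for 17 and below 0 for 5 of 22 tested genes, with a median of 0.22 (0.37 without naive replicate 1), and edgeR called 0. Without naive replicate 3 the median was 0.17, with 16 above and 6 below 0. In this list 5 genes lay above the naive range without overlap and 0 below, where 8.52% and 7.6% of all genes did. FANCI and FANCD2, partners in the repair of crosslinks, had log2 fold changes of 0.73 ± 0.18 and 1.08 ± 0.43 (SE), and neither overlapped between the groups. BRIP1, a helicase that works with BRCA1, gave 0.99 ± 0.33 and the recombination gene RAD54L 0.47 ± 0.15 (SE), again without overlap. Naive replicate 3 was the lowest library for FANCI, FANCD2 and BRIP1, and naive replicate 1 for RAD54L. The lowest were RAD1 and RAD9A, parts of a checkpoint clamp, at -0.40 ± 0.35 and -0.21 ± 0.37 (SE). RAD1 was at 17.6 CPM in naive replicate 3 and at 6.34 to 10.5 CPM in the other libraries.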
